A study of Mus musculus with 6 samples.

Results

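Homeostatic microglia are taken here as nuclei chosen by their own UMI counts of 13 genes, that is, by a gate on single nuclei and not a cluster. A nucleus was a member if it passed the filters of at least 300 genes and at most 1% mitochondrial unique molecular identifiers (UMIs), and if the UMIs of the 5 microglial genes P2ry12, Cx3cr1, Siglech, Selplg and Csf1r summed to at least 3. It also had to hold no UMI of Spp1 or Gpnmb, 2 genes of microglial activation, at most 1 UMI of the macrophage gene F13a1, at most 1 of the interferon-stimulated genes Oasl2, Usp18 and Oas2 together, and at most 1 of the myelin genes Mog and Mag together. Of 63383 barcodes in 6 libraries, 60724 passed the filters, 4087 of these reached the marker sum, and 2465 met every limit. They were 515, 566 and 404 nuclei in the 3 LPA libraries and 210, 548 and 222 in the 3 Vehicle libraries.

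Lysophosphatidic acid (LPA) is a blood-borne lipid that is injected into the ventricle of neonatal mice to model post-hemorrhagic hydrocephalus, the swelling of the ventricles that can follow a brain hemorrhage. C57BL/6 S-56 pups received 5 µl of LPA (18:1 Lyso PA in 0.01% BSA) or of the vehicle, 0.01% BSA, into the right lateral ventricle at postnatal day 7 (P7). Brains without olfactory bulbs and cerebellum were collected at P15, and nuclei negative for NeuN, a protein of neuronal nuclei, were sorted and counted with the 10x Genomics 3′ kit. Each library came from 1 mouse, and all mice also received the analgesic flunixin after surgery. The sources used here do not state plainly which of the study's LPA concentrations these libraries received, and the injection itself was shared by both groups.

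Microglia are the resident macrophages of the brain, derived from the yolk sac and sustained by the Csf1 receptor. In the healthy brain they express the ADP receptor P2ry12, the fractalkine receptor Cx3cr1 and a set of genes that depends on TGF-beta signals. On injury they lower these genes and raise genes for phagocytosis, lysosomal digestion and lipid handling, among them Spp1, Gpnmb, Apoe and Igf1. The comparison asks what differed between LPA and Vehicle in the microglial nuclei that had no UMI of the first pair.

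All 5 marker genes were present in every library, and their values are a description with no test because the gate used them. P2ry12 had 305, 296 and 294 CPM (UMIs of the gene scaled to a common library total) in gated nuclei of the LPA libraries and 237, 282 and 271 CPM in those of the Vehicle libraries. Csf1r, the receptor on which microglia depend, had 428, 522 and 443 CPM in LPA and 453, 440.4 and 423 CPM in Vehicle libraries. Selplg, the ligand of P-selectin, had 187, 237 and 160.5 CPM in LPA and 290.02, 237 and 242 CPM in Vehicle libraries. In the gated nuclei with fewest UMIs of other cell types, defined below, P2ry12 had 663, 617 and 673 CPM in LPA libraries. Its Vehicle levels there were 596, 693 and 546 CPM, and Selplg had 445, 511 and 355 against 841, 590 and 567 CPM. Over all gated nuclei the groups overlapped for Selplg and not for P2ry12, and in these nuclei the reverse held. Just inside the gate were 346 nuclei with a marker sum of exactly 3, and just outside it 1167 with a sum of 2 and 108 with a single UMI of Spp1 or Gpnmb. Of the nuclei that reached the marker sum, 1164 were over the limit on Mog and Mag, 401 held Spp1 or Gpnmb, 194 were over the limit on F13a1 and 72 over that on the interferon-stimulated genes, and a nucleus could fail several limits.

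Genes that the gate did not use were those of microglia too. Among genes with at least 200 CPM, Itgam, the complement receptor integrin CD11b, had 395 CPM in the gated nuclei with fewest UMIs of other cell types, defined in the next paragraph, and 4.74 CPM in all other nuclei. C1qa, a chain of complement C1q, had 382 against 7.98 CPM. These are values over the same nuclei the gate chose and carry no test. All 32 genes of a list of microglial identity genes outside the gate, Tmem119 and Sall1 among them, had UMIs in gated nuclei.

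The gate held 2 kinds of nuclei. For 83 marker genes of neurons, astrocytes, oligodendrocytes, their precursors, vascular and meningeal cells, and ependymal cells and choroid plexus, the share of a nucleus's UMIs had 2 peaks, and a limit of 2% was set between them after they were seen. At most 2% were found in 1419 gated nuclei (57.6%), with a median of 1763 UMIs per nucleus. The other 1046 gated nuclei had a median of 6510 UMIs, and 64.7% of them were called doublets by Scrublet, against 7.61% of the first kind. Since they were deeper, the second kind gave most of the RNA: the ≤2% nuclei held 26.1% of all UMIs in the gate, between 20.6% and 32.2% in each library. All other nuclei of the libraries had a median of 4374 UMIs. Among oligodendrocyte nuclei (Mog and Mag of at least 5 UMIs, median 6316 UMIs), 6.22% reached the marker sum of 3 and 33.4% were called doublets. The parts of free RNA and of doublets in this were not tested. Values are therefore given for all gated nuclei, for the ≤2% nuclei or for both, as stated at each, and the second choice was made after the data had been seen.

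**Figure D1:**
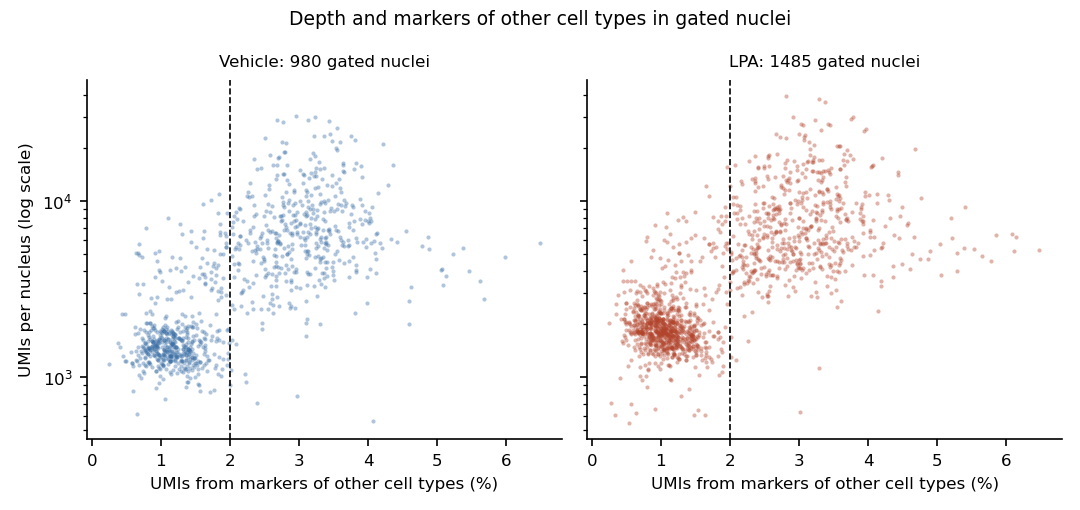
Each point is 1 gated nucleus, with the share of its UMIs from 83 markers of other cell types on the x axis (%) and its UMIs on the y axis (log scale), for Vehicle and LPA libraries. A dense group under the dashed line at 2% has a median of 1763 UMIs and a diffuse group above it a median of 6510 UMIs.

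Among the ≤2% nuclei, those of LPA libraries held more RNA. Their median was 1987, 1774 and 1848 UMIs in the LPA libraries and 1494, 1557 and 1311 in the Vehicle libraries, without overlap between the groups (difference 416 UMIs, two-sided exact permutation test p = 0.1, the smallest p that 3 against 3 allow). Median genes per nucleus were 1314 ± 57.8 against 1077 ± 74.4 (SD, n = 3 each, exact p = 0.1). Over all gated nuclei the groups overlapped, with 2630.3 ± 688 UMIs in LPA and 3071 ± 448 in Vehicle (exact p = 0.4). In all other nuclei they overlapped as well (4653 ± 358 and 4318 ± 453 UMIs, exact p = 0.4).

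Gated nuclei made up a larger mean share of LPA libraries, although the nearest libraries of the groups had almost the same share. The shares were 6.04, 5.51 and 4.44% of the nuclei that passed the filters in the LPA libraries and 2.59, 4.42 and 1.80% in the Vehicle libraries. The lowest LPA library and the highest Vehicle library lay next to each other, and their exact 95% intervals overlapped. The group means were 5.33% ± 0.817 and 2.94% ± 1.34 (SD, n = 3 each), a ratio of 1.82, with an exact two-sided permutation p of 0.1, the smallest this design allows. The ≤2% nuclei gave 3.24, 3.51 and 2.87% against 1.46, 2.45 and 0.812%, a ratio of 2.04 (exact p = 0.1), and here the groups stood further apart. With nuclei thinned to 1500 UMIs and the gate applied again, the means were 3.32% ± 0.644 and 1.21% ± 0.751, a ratio of 2.75 (exact p = 0.1). Nuclei with fewer UMIs were left out, 421, 601 and 427 in the LPA and 346, 643 and 626 in the Vehicle libraries. The ≤2% nuclei of Vehicle 1 and Vehicle 3 had medians under this depth, at 1494 and 1311 UMIs. The part of this cut in the ratio was not tested.

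The share depended on which nuclei it was taken of. Of the nuclei that reached the marker sum, 59.7%, 62.5% and 59.2% were in the gate in LPA libraries and 57.1%, 58.8% and 65.9% in Vehicle libraries, so that within this denominator the groups overlapped (exact p = 1). Nuclei that met every other limit but held a UMI of Spp1 or Gpnmb numbered 78, 98 and 88 in the LPA libraries. They numbered 3, 9 and 2 in the Vehicle libraries, or 0.945% ± 0.0271 in LPA against 0.0419% ± 0.0285 of all nuclei in Vehicle. Spp1 and Gpnmb are genes of the gate, so these shares are a description with no test. The nuclei over the limit on Mog and Mag were 24.6% of LPA and 33.5% of Vehicle nuclei with the marker sum on average.

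**Figure D2:**
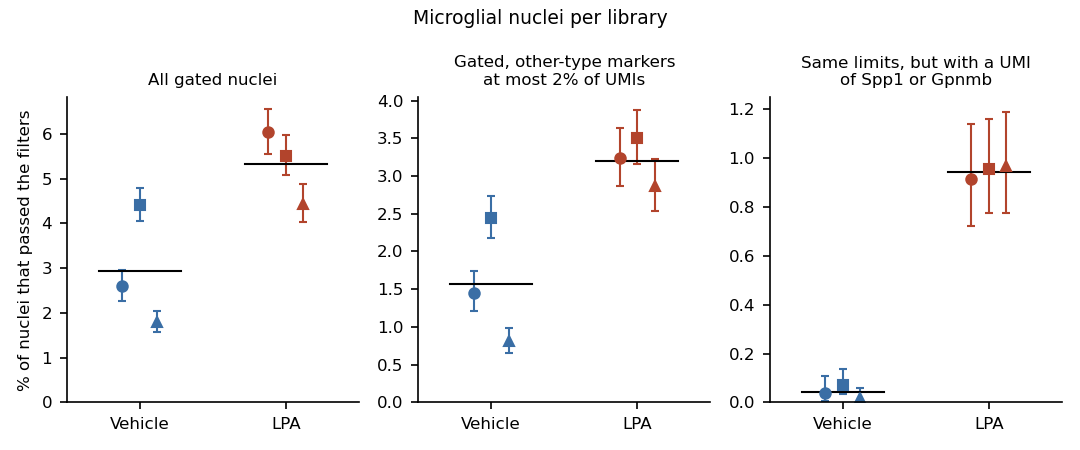
Share of nuclei that passed the filters (%, y axis) for each of 3 Vehicle and 3 LPA libraries (symbols: replicate 1 circle, 2 square, 3 triangle), with exact 95% binomial intervals and group means as lines. The gated nuclei of LPA 3 and Vehicle 2 lie at 4.44% and 4.42%, and the nuclei with Spp1 or Gpnmb at under 0.1% in every Vehicle library.

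Gene expression was then compared between LPA and Vehicle on UMIs summed per library. In all gated nuclei 150 of 13475 genes tested were higher in LPA (1.11%) and 97 were lower (0.720%), calling a gene where edgeR's adjusted p was under 0.05 and its log2 change was 0.25 or more in either direction. Of 9004 genes tested in the ≤2% nuclei, 63 were higher (0.700%) and 83 lower (0.922%). Both fits called 93 genes, all with the same sign, and these were 37.7% of the calls in all gated nuclei and 63.7% of those in the ≤2% nuclei. Leaving out Vehicle 2, Vehicle 3, LPA 2, LPA 3 or LPA 1 lowered the 247 calls in all gated nuclei to 123, 129, 132, 151 and 153, and leaving out Vehicle 1 gave 272. Of the 197 genes called in all gated nuclei and tested in the ≤2% nuclei, 195 had the same sign there.

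Calls were counted apart for genes enriched in microglia, as a description with no test. Of 2011 genes tested whose level in the ≤2% nuclei was at least 2 times that in all other nuclei, 95 were higher (4.72%) and 7 lower (0.348%) in LPA gated nuclei. Of the other 11464 genes, 55 were higher (0.480%) and 90 lower (0.785%). In the ≤2% nuclei the counts were 48 higher and 9 lower of 1674 microglia-enriched genes, and 15 higher and 74 lower of 7330 others. In the gated nuclei above 2%, which held most of the UMIs, 8 of 1652 enriched genes were higher (0.484%) and 59 of 10684 others (0.552%), and 20 genes were lower in all. This level was a mean over all 6 libraries, so the change between LPA and Vehicle itself moves some genes between the classes: Igf1, for one, had 22.2 CPM in ≤2% and 17.6 CPM in other nuclei of Vehicle libraries, and Bnc2 453 and 220.3 CPM. With the level taken over the Vehicle libraries only, an alternative chosen after the data had been seen, 81 of 2145 enriched genes were higher (3.78%) and 12 lower (0.559%) in all gated nuclei, and 69 (0.609%) and 85 (0.750%) of 11330 others. The counts in the ≤2% nuclei were then 38 higher and 15 lower of 1718, and 25 and 68 of 7286 others.

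Anapc15 and Mrc1 had the lowest p of the genes that were higher. Anapc15 encodes a subunit of the anaphase-promoting complex, and in the ≤2% nuclei had 340.1, 299 and 445 CPM in the LPA libraries and 49.05, 36.04 and 68.1 CPM in the Vehicle libraries. Every LPA library was over 4 times the highest Vehicle library (log2 fold change 2.97 ± 0.23 (SE), adjusted p = 4.35e-06; all gated nuclei 2.77 ± 0.19, adjusted p = 2.65e-06). Mrc1 encodes the mannose receptor CD206, a scavenger receptor of macrophages, and had 351, 310.2 and 433 CPM in the LPA libraries and 107, 60.1 and 96.5 CPM in the Vehicle libraries. Again the groups were far apart (log2 fold change 2.18 ± 0.21, adjusted p = 2.63e-05; all gated nuclei 2.07 ± 0.19, adjusted p = 8.77e-05). The annotated gene Anapc15 spans chr7:101863715-101901849 (GRCm38) and overlaps Folr1 and Tomt on the other strand, and Mrc1 spans chr2:14229392-14332057 with no overlapping gene.

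A larger share of nuclei held a UMI of each gene in LPA libraries. The ≤2% nuclei were thinned to 1000 UMIs, and shallower ones were left out, 4, 6 and 6 in the LPA and 2, 13 and 2 in the Vehicle libraries. Mrc1 was then found in 24.3, 20.9 and 25.5% of nuclei in the LPA libraries and 7.76, 4.81 and 5.10% in the Vehicle libraries. Without thinning it was found in 32.2, 30 and 37.2% and 11.02, 8.22 and 8% of all ≤2% nuclei. Anapc15 was found in 15.8, 20.1 and 29.8% and 6.03, 3.44 and 3.06% after thinning, and in 30.4, 28.9 and 42.9% and 6.78, 6.58 and 7% before. Oligodendrocyte nuclei, which should lack Mrc1, held it in 0.416% to 0.753% of nuclei at the same 1000 UMIs, and Anapc15 in 0.613% to 1.43%. The median depth before thinning was 1311 to 1987 UMIs in the ≤2% nuclei and 5058 to 7609 UMIs in the oligodendrocyte nuclei of each library.

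Promoter sequence is shown for these 2 genes because they rose together with the lowest p. The windows are those of RefSeq on GRCm38.p6, from 250 bases before to 50 after an annotated start, written 5′ to 3′ on the strand of the gene. Capitals mark GGAAGT, the core read by PU.1 and other ETS factors such as Fli1, and CATGTG, an E-box read by Mitf and related factors, each on either strand (ACTTCC and CACATG on the other one).
Anapc15, chr7:101885610-101885909, plus strand: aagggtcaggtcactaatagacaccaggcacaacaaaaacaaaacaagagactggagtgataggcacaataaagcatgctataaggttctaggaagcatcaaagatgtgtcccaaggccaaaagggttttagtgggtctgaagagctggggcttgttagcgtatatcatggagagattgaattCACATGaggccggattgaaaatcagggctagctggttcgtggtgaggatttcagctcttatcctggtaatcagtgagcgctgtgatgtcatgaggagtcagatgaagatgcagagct
Anapc15, chr7:101896081-101896380, plus strand: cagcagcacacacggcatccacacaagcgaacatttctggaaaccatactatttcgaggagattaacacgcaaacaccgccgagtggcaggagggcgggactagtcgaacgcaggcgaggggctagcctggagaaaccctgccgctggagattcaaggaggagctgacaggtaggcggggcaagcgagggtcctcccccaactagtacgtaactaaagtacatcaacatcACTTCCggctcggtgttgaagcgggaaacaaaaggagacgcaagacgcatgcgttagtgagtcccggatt
Mrc1, chr2:14229164-14229463, plus strand: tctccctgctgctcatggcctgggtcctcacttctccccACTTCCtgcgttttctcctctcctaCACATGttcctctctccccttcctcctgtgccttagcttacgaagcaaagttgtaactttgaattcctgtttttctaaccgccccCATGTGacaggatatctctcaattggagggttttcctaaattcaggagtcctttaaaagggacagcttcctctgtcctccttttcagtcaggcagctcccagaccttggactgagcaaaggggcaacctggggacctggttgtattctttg
The first set of letters is found in 23.8% and the second in 14.2% of 32851 RefSeq windows of this length. A match is a description of the letters and not of binding. Of 5 microglia-enriched genes that were higher in both fits and differed from other nuclei in both, namely Anapc15, Mrc1, Man1c1, Ctsb and Gas6, 4 had a window. The ETS letters were in a window of 2 of them and the E-box letters in a window of 2, in each case Anapc15 and Mrc1, and no match of one overlapped a match of the other.

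Mrc1 and Stab1 are also markers of border-associated macrophages, the macrophages of the meninges and vessel walls. Of 12 markers of these cells, 5 were tested in all gated nuclei and Mrc1, Stab1 and Dab2 were called higher, where 1.11% of all genes were. The median log2 fold change of the 5 was 1.21, against -0.01 over all genes. Mrc1 and Stab1 were called of 3 tested in the ≤2% nuclei, where 0.700% of all genes were higher. Dab2, an endocytic adaptor, had 214, 139 and 252 against 125, 109.8 and 108 CPM there and was not called (adjusted p = 0.0776). The summed level of the 12 markers in the ≤2% nuclei was 1158, 998 and 1461 CPM in LPA and 584, 459.97 and 415 CPM in Vehicle libraries, with Stab1 the most abundant. The defining markers Lyve1, Pf4 and Cd209f had no UMI in the 1419 ≤2% nuclei, and Cd163 had 11 UMIs in all, 6 in LPA and 5 in Vehicle libraries. Ms4a7 had 8, 12 and 22 UMIs in the LPA and 2, 2 and 0 in the Vehicle libraries. The rest of the list had few UMIs in these nuclei, with 12 of Folr2, 21 of Cd38, 8 of Cbr2 and 2 of Clec4n in all libraries together, and for Folr2, Cd38 and Cbr2 most of them came from LPA libraries, which also held more ≤2% nuclei. Of 16 markers of monocytes, neutrophils and lymphocytes, S100a8, S100a9, Ly6c2, Ly6g, Cd3e and Nkg7 had no UMI in any gated nucleus. The other members had 1 to 85 UMIs over all gated nuclei, the most in Flt3 (85), Skap1 (74), Themis (31) and Ccr2 (23), and 15, 6, 8 and 8 of these were in the ≤2% nuclei.

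Receptors and ligands of phagocytosis rose in part. Stab1, the scavenger receptor stabilin 1, had 543, 519 and 713 against 326, 278 and 204 CPM in LPA against Vehicle ≤2% nuclei (log2 fold change 1.11 ± 0.16, adjusted p = 0.0014, and 1.21 in all gated nuclei). Gas6, a ligand that bridges apoptotic cells to the receptors Mertk and Axl, had 204, 234 and 278 against 103, 89.2 and 90.9 CPM (1.35 ± 0.18, adjusted p = 6.41e-04, and 0.86 in all gated nuclei). In both, every LPA library was above every Vehicle library. Mertk, the receptor gene, did not pass the test, at 1799, 1612 and 1789.96 against 1689.9, 1454 and 1516 CPM (adjusted p = 0.646). Of 23 tested members of the phagocytic and scavenger receptor list, 3 were higher and 0 lower in all gated nuclei, where 1.11% of all genes were higher (median 0.19). In the ≤2% nuclei 2 of 20 were higher, against 0.700% of all genes. The third was Cd300a, an inhibitory receptor for phosphatidylserine, with log2 fold change 0.71 ± 0.17 (adjusted p = 0.0451), which was not called in the ≤2% nuclei (0.65 ± 0.23, adjusted p = 0.242). Lrp1 and Itgb5, the integrin chain beta 5, had 0.24 and -0.15 there and were not called.

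Of the lysosomal proteases and their inhibitors, 2 of 22 were higher and 1 lower in all gated nuclei, against 1.11% and 0.720% of all genes (median 0.21). Ctsb, the protease cathepsin B, had 389, 409 and 583 CPM in the LPA libraries and 192, 178 and 159 CPM in the Vehicle libraries in the ≤2% nuclei (log2 fold change 1.36 ± 0.17, adjusted p = 6.20e-04, and 1.06 in all gated nuclei). It was the clearest rise of the list, with LPA libraries all over 2 times the Vehicle ones. Lgmn, legumain, was higher by 0.39 in all gated nuclei (adjusted p = 0.0454) but not called in the ≤2% nuclei (0.22, adjusted p = 0.516). Cst3, which encodes cystatin C, a secreted inhibitor of these proteases and one of the most abundant microglial transcripts, moved the other way. It had 957, 978 and 798 CPM in the LPA libraries and 1717, 1897 and 1323 CPM in the Vehicle libraries (-0.86 ± 0.14, adjusted p = 0.00253, and -0.73 in all gated nuclei). The cathepsin D gene Ctsd was not called, at 551, 631 and 776 against 713, 515 and 443 CPM, and neither was Psap (0.02), both in the ≤2% nuclei.

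In the lipid list, Abca1, the transporter that loads cholesterol onto apolipoproteins, had 767, 678 and 903 against 473, 386 and 346 CPM (log2 fold change 0.96 ± 0.14, adjusted p = 0.0017, and 0.73 in all gated nuclei), and was the one member of 34 tested that was called in all gated nuclei (median 0.04). For a list of this length, 1 call is within 1 gene of the 1.11% of all genes that were higher. Apoe, which encodes the main apolipoprotein of the brain, was not called there, at 822, 881 and 1007 against 843, 867 and 748 CPM (adjusted p = 0.648). In the ≤2% nuclei it had 897, 1308 and 1798 against 816, 819 and 636 CPM, each LPA library above each Vehicle library (log2 fold change 0.80 ± 0.19, adjusted p = 0.0422). Astrocytes express Apoe too, and in all other nuclei it had a mean of 609.9 CPM in LPA and 673 CPM in Vehicle libraries. Abhd12, a lipase that degrades lysophosphatidylserine, rose in both fits, and had 807, 699.6 and 728 against 397, 431 and 398 CPM in the ≤2% nuclei (0.86 ± 0.12, adjusted p = 0.0011, and 0.69 in all gated nuclei).

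Of 23 tested activation genes of microglia, 7 were higher and 1 lower in all gated nuclei, against 1.11% and 0.720% of all genes, and their median log2 fold change was 0.46. In the ≤2% nuclei 6 of 18 were higher (0.700% of all genes) and 0 lower, with a median of 0.76. Besides Stab1 and Abca1, Plek, which encodes the signaling protein pleckstrin, had 204, 148 and 185 against 98.1, 78.9 and 51.1 CPM (log2 fold change 1.19 ± 0.21, adjusted p = 0.00569, and 1.04 in all gated nuclei). Igf1, a growth factor that microglia of developing white matter secrete, had 71.2, 99.8 and 159 against 49.05, 12.01 and 5.68 CPM (2.44 ± 0.45, adjusted p = 0.00807). Vehicle 1 held the highest Igf1 level of its group, still below the lowest LPA library. In all gated nuclei Igf1 had 36.3, 53.1 and 78.1 against 35.3, 24.5 and 14.5 CPM, with a smaller change (1.13 ± 0.27, adjusted p = 0.0492) and LPA 1 next to Vehicle 1. The member that fell, Colec12, a scavenger collectin of vascular cells, had -0.83 in all gated nuclei and a level in other nuclei of 109 CPM in Vehicle libraries, near its level in the gated nuclei of those libraries (119.7, 95.3 and 107 CPM). Hif1a and Ank were not called in either fit.

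**Figure D3:**
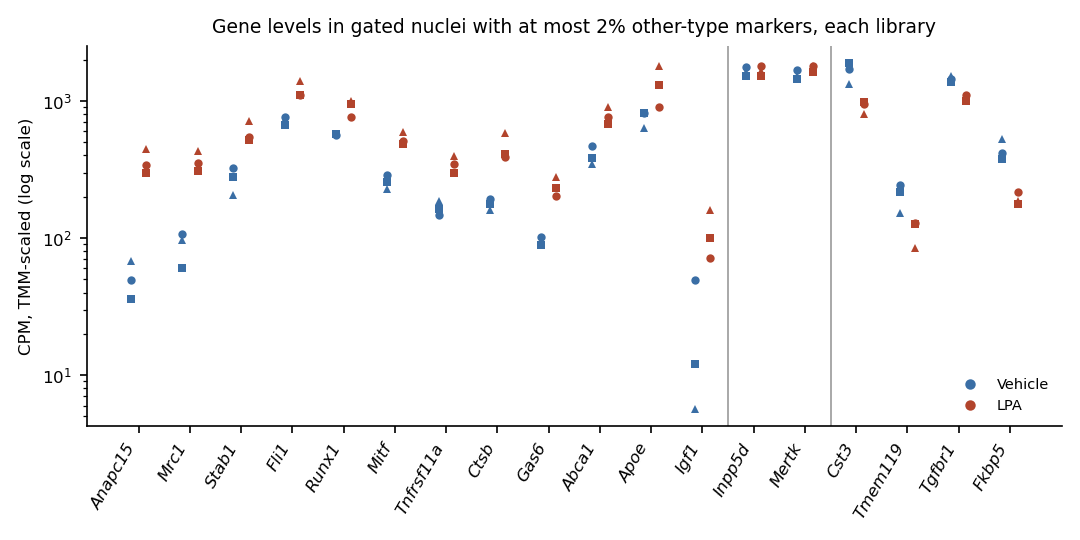
TMM-scaled CPM (log scale, y axis) of 18 genes in the gated nuclei with at most 2% markers of other types, 1 symbol per library (replicate 1 circle, 2 square, 3 triangle). In the fit of these nuclei the 12 genes on the left were called higher in LPA and the 4 on the right lower. Inpp5d and Mertk in the middle were not called. The 16 were drawn from genes called in this fit, so the distance between their groups is no further result.

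Transcription factors of microglia moved upward where they were called. In all gated nuclei 5 of 47 were higher and 0 lower, where 1.11% of all genes were higher (median 0.27), namely Fli1, Mitf, Runx1, Rbpj and Irf8. Fli1, an ETS factor of blood and endothelial cells, had 1106, 1109.6 and 1387 against 762, 664 and 738 CPM in the ≤2% nuclei (log2 fold change 0.74 ± 0.13, adjusted p = 0.00463, and 0.90 in all gated nuclei). Runx1, which is required for the first blood cells and marks young microglia, had 763, 944 and 991 against 566, 575 and 574 CPM (0.65 ± 0.13, adjusted p = 0.0125, and 0.76 in all gated nuclei). The LPA libraries were above the Vehicle libraries in both genes. Mitf, a factor of the family that controls lysosomal genes, had 508, 482 and 594 against 289.8, 257 and 227 CPM (1.02 ± 0.14, adjusted p = 7.56e-04, and 0.73 in all gated nuclei), and Rbpj, the factor of Notch signaling, 215, 204 and 267 against 174, 105 and 142 CPM (0.79 ± 0.19, adjusted p = 0.0425, and 0.52 in all gated nuclei). Zeb2, Mef2c and Mef2a, the most abundant members that were not called, had 0.39, 0.32 and 0.04 in all gated nuclei, and 0.42, 0.32 and -0.04 in the ≤2% nuclei.

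Among microglial identity genes outside the gate all calls were falls. Of 32 tested, 0 were higher and 2 lower in all gated nuclei (0.720% of all genes were lower; median -0.02), and in the ≤2% nuclei 0 were higher and 3 lower of 31 (0.922% of all genes were lower; median -0.21, against -0.01 over all genes). Cst3 was one, and Tmem119, a membrane protein of mature microglia, another. Tmem119 had 129.7, 126 and 85.1 CPM in the LPA libraries and 245, 218 and 153 CPM in the Vehicle libraries (log2 fold change -0.87 ± 0.19, adjusted p = 0.0252, and -0.65 in all gated nuclei), and the lowest Vehicle library was above the highest LPA library. The third, called in the ≤2% nuclei, was the TGF-beta receptor gene Tgfbr1, at 1104, 996 and 1029 against 1449, 1378 and 1516 CPM (-0.47 ± 0.11, adjusted p = 0.0368, against -0.26, adjusted p = 0.288, in all gated nuclei). Inpp5d, a phosphatase that restrains signaling of immune receptors, had 1808, 1532 and 1648 against 1775, 1507 and 1629.8 CPM (0.03 ± 0.11, adjusted p = 0.975). It was not called, and the groups overlapped.

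Microglia need TGF-beta for their identity. Of 24 tested genes of this pathway 1 was higher and 1 lower in all gated nuclei, within 1 gene of the 1.11% and 0.720% of all genes. In the ≤2% nuclei 1 was higher and 2 lower of 21, against 0.700% and 0.922% of all genes, with Tgfbr1 the second that was lower. Nrros, which anchors latent TGF-beta on the surface of microglia, was higher at 293, 301 and 348 against 205, 208 and 204 CPM (log2 fold change 0.60 ± 0.14, adjusted p = 0.0302, and 0.73 in all gated nuclei). Tgfbr3, the co-receptor betaglycan, was lower at 44.3, 54.7 and 43.5 against 178, 149 and 114 CPM (-1.63 ± 0.21, adjusted p = 6.41e-04). Its level in all other nuclei was 60.3 CPM in LPA and 99.9 CPM in Vehicle libraries, so it fell there as well, by less than in the ≤2% nuclei (difference -0.86 ± 0.23, adjusted p = 0.0297). In all gated nuclei it had 64.2, 57.3 and 66.5 against 119, 91.8 and 109.6 CPM (-0.74 ± 0.13, adjusted p = 0.00559), against -0.73 in other nuclei, and no difference was called (adjusted p = 1). Of the other members of the 24 tested in all gated nuclei none was called, Bmp2k and Ski included (0.34 and 0.19).

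Among receptors, Tnfrsf11a, which encodes RANK, a receptor of osteoclasts and of the earliest macrophage precursors, was the only one of 26 tested genes of the Csf1 receptor axis and myeloid cytokine receptors to be called. It had 348, 301 and 397 CPM in the LPA libraries and 147, 163 and 187 CPM in the Vehicle libraries (log2 fold change 1.08 ± 0.15, adjusted p = 0.0011, and 1.04 in all gated nuclei). Of the purinergic genes, P2rx4, an ATP-gated channel of activated microglia, had 139, 135 and 140.02 against 98.1, 72.1 and 51.1 CPM (0.89 ± 0.20, adjusted p = 0.032, and 0.70 in all gated nuclei). Kcnk13, which encodes THIK-1, the potassium channel that works with P2ry12, was higher in all gated nuclei (0.54 ± 0.11, adjusted p = 0.0185) and not called in the ≤2% nuclei (0.37 ± 0.13, adjusted p = 0.242). Entpd1 (CD39), P2ry6 and P2rx7 were not called, with 0.22, 0.02 and 0.08 in the ≤2% nuclei. Itga6, the integrin chain alpha 6, was the one call among 20 chemokine, adhesion and migration receptors in all gated nuclei (0.38, adjusted p = 0.0451). There was none among 16 in the ≤2% nuclei. These counts, and the 1 of 26, are within 1 gene of the share of all genes that were higher (1.11% and 0.700%). Nothing is read from them about the lists.

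Ccl3, a chemokine that attracts myeloid cells and lymphocytes, had 23, 12 and 16 UMIs over gated nuclei of the LPA libraries and 0 in each Vehicle library. Its level was at least 11.2-fold higher, taking 3 counts over the Vehicle group as the floor, and it was called (adjusted p = 0.00334). Of the 41 Ccl3 UMIs in the ≤2% nuclei, all came from LPA libraries, and at 1000 UMIs per nucleus 1.47, 1.13 and 1.96% of nuclei held one. In all other nuclei Ccl3 had 1.28, 1.11 and 1.29 against 0.126, 0.0966 and 0.0372 CPM and was higher in LPA as well (3.80, adjusted p = 7.51e-04), and no difference between gated and other nuclei was called (adjusted p = 0.679). Vegfa, Il18 and Tgfb1, the most abundant cytokine genes that were not called, had 0.03, -0.04 and 0.49 in all gated nuclei.

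Genes of the LPA pathway itself gave no call in either fit, among 10 and 9 tested (edgeR; the medians were 0.09 and -0.08). Of all genes, 1.11% and 0.700% were higher and 0.720% and 0.922% lower in these fits. For lists this short, no call is within 1 gene of those shares. Lpar6, named here because it is the LPA receptor with most UMIs in the ≤2% nuclei, had 96.5, 79.3 and 68.1 CPM in LPA and 98.1, 51.5 and 56.8 CPM in Vehicle libraries (log2 fold change 0.33 ± 0.26, adjusted p = 0.705), with overlapping groups. Lpar1, the receptor with most UMIs over all gated nuclei, had 30.1, 42.4 and 17.03 CPM in LPA and 53.5, 82.4 and 62.5 CPM in Vehicle ≤2% nuclei (-1.18 ± 0.31, adjusted p = 0.0736). Every LPA library was below every Vehicle library there, and it was not called, nor in all gated nuclei (-0.64, adjusted p = 0.114). Lpar5 had 12 UMIs in all ≤2% nuclei, too few to be tested. Enpp2, which encodes autotaxin, the enzyme that makes LPA, and the phosphatase gene Plpp3 had -0.19 and -0.36 in the ≤2% nuclei.

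Counts of 1 call or none, as in the interferon, antigen and complement lists, are within 1 gene of the 1.11% of all genes that were higher, and nothing is read from them about the lists. Ddx60, an interferon-induced helicase, had 94.9, 81.99 and 125 against 31.2, 41.2 and 56.8 CPM (log2 fold change 1.24 ± 0.27, adjusted p = 0.0237, and 1.52 in all gated nuclei) and was the only one of 22 tested interferon-stimulated genes outside the gate to be called, though the median of the list was 0.40. The gate itself limits 3 such genes. None of 10 genes of antigen presentation was called (edgeR; Cd86, H2-K1 and B2m had 0.45, 0.19 and 0.33 in all gated nuclei). Of 11 complement genes, C4b was higher in all gated nuclei (1.40, adjusted p = 0.00567), with a level of 30.3 CPM in other nuclei of LPA libraries that was above that in the gate. C1qc was not called (-0.38 in the ≤2% nuclei).

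Dividing nuclei were rare. At least 2 UMIs of Mki67 and Top2a were held by 19 of 1485 gated nuclei of LPA and 3 of 980 of Vehicle libraries, and of these by 4 of 897 and 1 of 522 in the ≤2% nuclei. Top2a, the topoisomerase of dividing cells, was the one call among 16 tested cell division genes in all gated nuclei (1.68 ± 0.40, adjusted p = 0.0451) and could not be tested in the ≤2% nuclei. For 16 genes, 1 call is within 1 gene of the 1.11% of all genes that were higher.

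Among genes of the glucocorticoid response all calls were falls. Of 22 tested, 0 were higher and 3 lower in all gated nuclei, where 0.720% of all genes were lower (median -0.37), and 3 of 14 were lower in the ≤2% nuclei, where 0.922% were. Fkbp5, a chaperone of the receptor and one of its most inducible targets, had 218, 178 and 185 CPM in the LPA libraries and 419, 378 and 528 CPM in the Vehicle libraries (log2 fold change -1.15 ± 0.15, adjusted p = 6.41e-04, and -0.94 in all gated nuclei). Zbtb16 had 36.4, 31.4 and 20.8 against 116, 97.8 and 176 CPM (-2.01 ± 0.28, adjusted p = 9.27e-04), with a smaller fall in all gated nuclei (-0.86 ± 0.17, adjusted p = 0.0136). Both fell outside the gate too: in all other nuclei Fkbp5 fell by 0.93 and Zbtb16 by 0.63 on the log2 scale, and no difference between gated and other nuclei was called for Fkbp5 (0.01, adjusted p = 0.999). For Zbtb16 the difference was not called in all gated nuclei (-0.25, adjusted p = 0.602) and was called in the ≤2% nuclei (-1.33 ± 0.26, adjusted p = 1.32e-04). Klf9 was called lower in all gated nuclei (-0.51) and not in the ≤2% nuclei. Its means there were 54.9 CPM in LPA and 78.6 CPM in Vehicle libraries, and the groups overlapped. The receptor gene Nr3c1 was not called (0.21 in the ≤2% nuclei), and the mineralocorticoid receptor gene Nr3c2 was lower there (-0.71, adjusted p = 0.0375, against -0.40, adjusted p = 0.0618, in all gated nuclei).

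**Figure D4:**
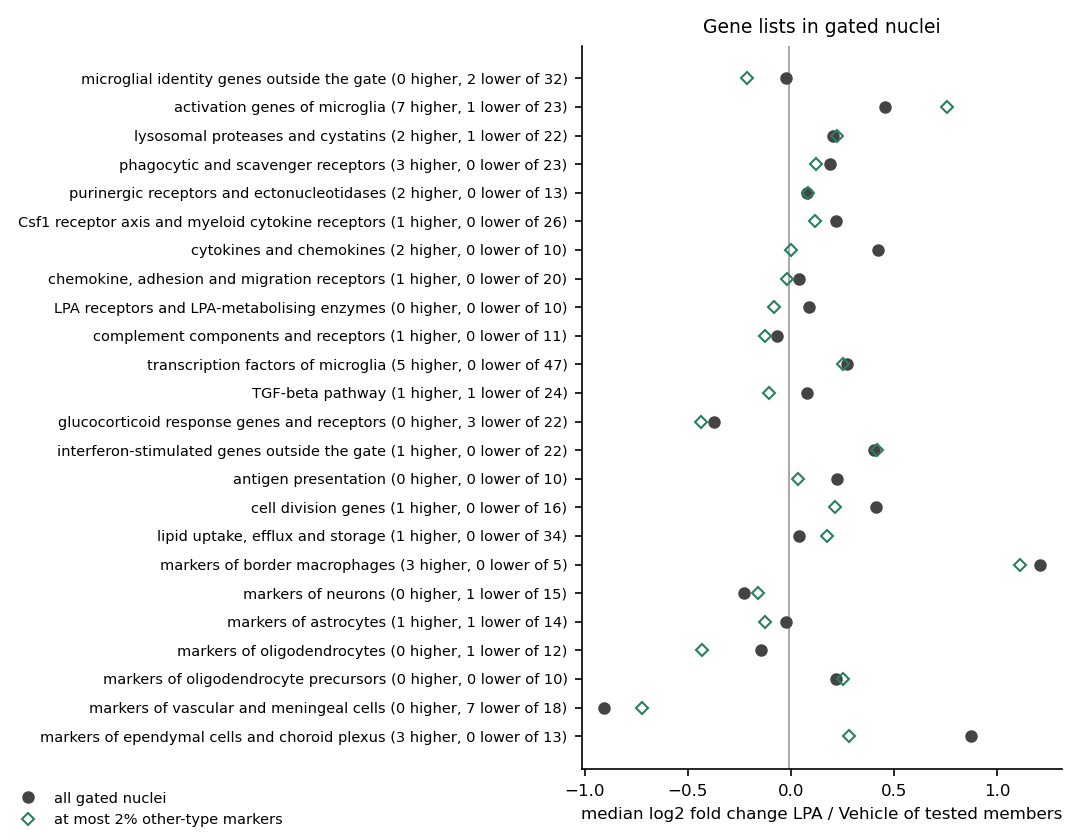
Median log2 fold change, LPA against Vehicle, of the tested members of each gene list in all gated nuclei (filled) and in the ≤2% nuclei (open), with the counts called in all gated nuclei. The list of monocytes, neutrophils and lymphocytes is not drawn, and the vertical line is the median of all genes. Activation genes lie at 0.46 and 0.76, and vascular and meningeal markers at -0.91 and -0.72.

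Markers of vascular and meningeal cells, which microglia do not express, were the list with most falls. Of 18 tested 0 were higher and 7 lower in all gated nuclei, where 0.720% of all genes were lower (median -0.91), and 0 of 16 were higher and 4 lower in the ≤2% nuclei (0.922% of all genes were lower there). Their summed level was 659, 785 and 712 CPM in LPA and 1326, 980.2 and 1388 CPM in Vehicle libraries, and Bmp6 was the most abundant. Slc6a13, a GABA and taurine transporter of the meninges, had 18.1, 24.7 and 19.7 against 67.7, 45.5 and 55.9 CPM (log2 fold change -1.38 ± 0.19, adjusted p = 0.00147). Tbx15, a T-box factor of mesenchyme, had 17.01, 18.8 and 20.2 against 74.6, 53.2 and 52.6 CPM (-1.67 ± 0.18). In the ≤2% nuclei Tbx15 had 36.4, 20.5 and 34.1 against 120, 125 and 90.9 CPM (-1.95 ± 0.26, adjusted p = 6.41e-04). In all other nuclei these genes fell too: Slc6a13 had means of 29.4 and 62.3 CPM (-1.08) and Tbx15 24.9 and 48.3 CPM (-0.96). Falls in other nuclei as well were called for Bnc2, Aox3, the laminin gene Lama1, the metalloprotease gene Adam12, Trabd2b, the prostaglandin D synthase gene Ptgds, Itgbl1, 4930594M22Rik and Fbxl7, which changed by -1.12, -1.91, -1.23, -0.98, -0.92, -1.09, -1.07, -1.26 and -0.66 in gated nuclei. For none of these was a difference between all gated and other nuclei called. Bnc2 and Adam12 were called lower in the ≤2% nuclei too (-1.36 and -1.52, adjusted p = 0.00276 and 6.41e-04), and Aox3 was not tested there. For Tbx15 and Bnc2 no difference between the ≤2% and other nuclei was called (adjusted p = 0.0735 and 0.237). With the ≤2% nuclei the fall was larger than in other nuclei for Slc6a13 (-1.57, adjusted p = 0.0404), Lama1 (-1.78, adjusted p = 0.00409), Adam12 (-0.89, adjusted p = 0.00146) and Fbxl7 (-0.87, adjusted p = 2.53e-05). Slc6a13 and the other markers of this list are among the 83 that the 2% limit was set on, so the limit bears directly on their values in the ≤2% nuclei. The part that RNA of other cells played in these falls was not tested.

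Other genes of low p moved with the rest of the library too. Mitochondrial mt-Co3 had 59.7, 89.5 and 148 against 329.6, 226 and 299 CPM (-1.53), and the mean share of mitochondrial UMIs per gated nucleus was 0.0493% ± 0.0189 in LPA and 0.145% ± 0.0322 in Vehicle libraries, against 0.0411% ± 0.0151 and 0.0984% ± 0.0160 in all other nuclei, in both cases without overlap between the groups (exact p = 0.1). Gfap, the filament of reactive astrocytes, was higher at 49.5, 45.99 and 50.5 against 17.7, 21.4 and 19.01 CPM (1.28) and rose by 1.55 in other nuclei. Wdr49 rose by 2.12 in gated and 1.05 in other nuclei. Gfap was not called in the ≤2% nuclei (adjusted p = 0.0645), but its log2 fold change of 1.64 ± 0.42 was no smaller there. It had 36.4, 36.9 and 51.1 against 4.46, 18.9 and 5.68 CPM in these nuclei, without overlap between the groups. The Vehicle values rest on 1, 11 and 1 UMIs. As an astrocyte marker, Gfap is among the genes that the 2% limit was set on. Wdr49 was not called in the ≤2% nuclei either, at 12.7, 27.3 and 32.2 against 26.8, 1.72 and 5.68 CPM (adjusted p = 0.411) with overlapping groups. The ciliary genes Dnah12, Cfap299 and Spag17 were higher in all gated nuclei (2.53, 1.43 and 1.69), with Vehicle 1 above the other Vehicle libraries in each. In the ≤2% nuclei Dnah12 and Cfap299 were not called (adjusted p = 0.766 and 0.885), and since these are markers that the 2% limit was set on, the limit bears on them directly. Of the markers of neurons, oligodendrocytes and oligodendrocyte precursors, 1 of 15 (Snap25, -0.48), 1 of 12 (Mobp, -0.56) and 0 of 10 were lower in all gated nuclei, and none was higher. Of 14 astrocyte markers, Gfap was higher and the gap junction gene Gja1 lower (-0.49). Over all genes of this fit, 1.11% were higher and 0.720% lower. Of the markers of monocytes, neutrophils and lymphocytes, 2 could be tested and neither was called.

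Whether an effect differed from that in the other nuclei of the same libraries was tested as an interaction. The effect differed for 51 of 19755 genes (0.258%) in all gated nuclei and for 147 of 19275 (0.763%) in the ≤2% nuclei. Mrc1 rose by 2.07 in gated nuclei and had 0.47 in other nuclei, a difference of 1.69 ± 0.22 (adjusted p = 2.88e-04). Anapc15 differed by 1.35 ± 0.20 (adjusted p = 5.87e-04), Ctsb by 0.68 ± 0.12, Gas6 by 0.67 ± 0.11, Man1c1, a Golgi mannosidase gene, by 0.58 ± 0.10 and Mitf by 0.54 ± 0.10, each with the larger rise in the gate. Anapc15 rose in other nuclei as well, by 1.44. Leaving out Vehicle 2 raised the 51 calls to 140. For Fli1, Stab1 and Runx1 no difference was called (0.08, -0.26 and -0.62). With the ≤2% nuclei the rise of Runx1 was smaller than in other nuclei (-0.66 ± 0.15, adjusted p = 0.00211), and Fli1 and Stab1 were again not called. Other nuclei still included nuclei with the marker sum that failed another limit, at 4.33%, 3.51% and 3.20% of other nuclei in LPA and 2.00%, 3.24% and 0.951% in Vehicle libraries. Inpp5d and Csf3r, not called in the gate, rose in other nuclei by 1.14 and 1.63.

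**Figure D5:**
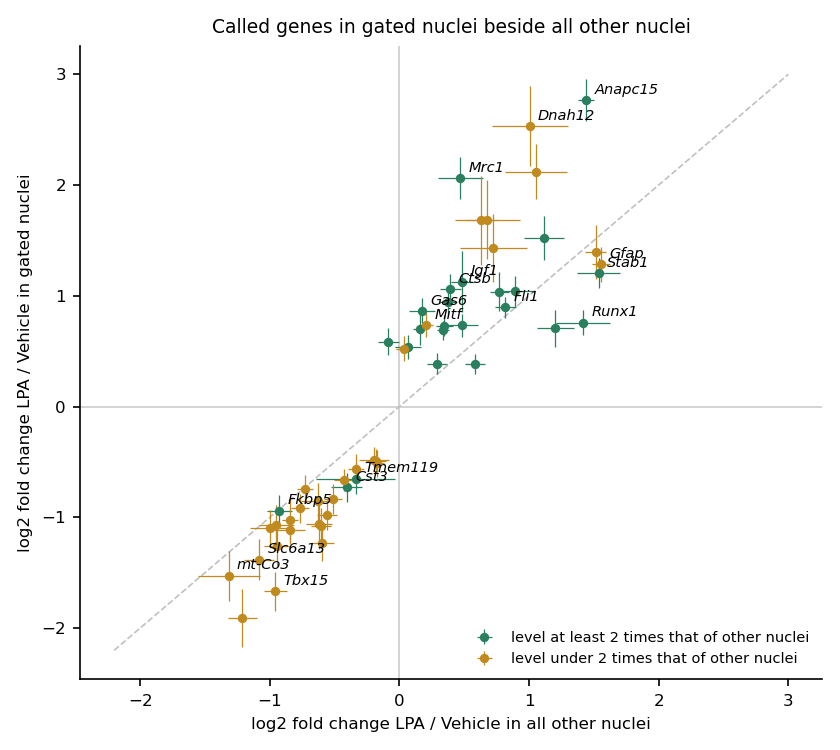
Log2 fold change, LPA against Vehicle, in all gated nuclei (y axis) and in all other nuclei (x axis) for the named genes called in gated nuclei, with standard errors; Ccl3 is left out. Genes whose level in the ≤2% nuclei is at least 2 times that of other nuclei are green. Mrc1 and Anapc15 lie above the diagonal. Of the genes that fell, Slc6a13 and Fkbp5 lie close to it, and Tbx15, Aox3 and Lama1 below it.

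Levels in the LPA ≤2% nuclei were set beside those of LPA nuclei with Spp1 or Gpnmb. Among ≤2% nuclei of LPA libraries that met every limit but held a UMI of either gene, Ctsb had 715, 813 and 1059.8 CPM, Mitf 985, 992 and 1528 CPM and Apoe 2788, 2483 and 3422 CPM. Igf1 had 556, 519 and 758 CPM. Of 22 named microglia-enriched genes that were higher in LPA gated nuclei, 14 were higher still in the nuclei with Spp1 or Gpnmb in every LPA library, and 0 were lower in every one, with both sets of nuclei as CPM of total UMIs. The gated nuclei here are the ≤2% ones, and with their CPM scaled by TMM instead, 13 were higher and 3 (Lgmn, Tnfrsf11a and Itga6) lower in every LPA library. Cst3 had 324, 309 and 302 CPM and Tmem119 48.9, 9.97 and 0 CPM in these nuclei, below the ≤2% gated nuclei in each LPA library. Fli1, at 899, 1122 and 1409 CPM, was below the ≤2% gated nuclei in LPA 1 and above them in LPA 2 and LPA 3. The gate divides the nuclei by Spp1 and Gpnmb, so these values are a description with no test. The 22 genes were chosen because they were higher in LPA than in Vehicle gated nuclei. The share of all genes that were higher in the nuclei with Spp1 or Gpnmb is not given here.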

How the data were processed

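Single-nucleus RNA-sequencing counts of NeuN-negative nuclei from 3 LPA and 3 Vehicle mice were used. The authors made the deposited UMI count matrices with Cell Ranger 4.0.0 on a pre-mRNA reference of mm10, and deposited the filtered raw counts of 32285 genes without normalization. Libraries held 8639 to 12894 barcodes and 48852970 to 65688644 UMIs. The other deposited columns, gene names and barcodes, hold no measurement.

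The gate was applied to raw counts without an upper limit on UMIs and with doublets kept and no correction for ambient RNA. UMIs were summed per library over 906257 to 2688632 UMIs of gated nuclei and tested with edgeR 4.0.16 (R 4.3.3; filterByExpr, TMM, quasi-likelihood, Benjamini-Hochberg). The 13 gate genes were fitted but never counted. The interaction had library as a term. CPM are TMM-scaled, except in nuclei with Spp1 or Gpnmb and for the gate genes, where they are of total UMIs. Shares and medians were compared by two-sided exact permutation over 20 assignments, with a smallest p of 0.1. DESeq2 1.42.0, limma 3.58.1, scanpy 1.11.5 (Scrublet, expected rate 0.08), pandas 2.3.3, scipy 1.17.1, numpy 2.4.6 and matplotlib 3.10.9 under Python 3.11.15 were used. The fit was tested on simulated data. Loci are of GENCODE M21.

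Named genes were the 12 of lowest p in each direction and, of each of 25 lists, up to 4 called members by p and up to 3 others by level; Lpar6, Lpar1, Lpar5, Cd163, Ms4a7, Lyve1, Pf4, Cd209f, Cbr2, Clec4n, Themis, Ccr2 and the genes that describe the gate or are given only by their presence were named after their values were seen. Of the interferon list 42 of 44 genes were in the files. The gate, the lists and the tests were chosen with earlier results of these data known. The LPA and Vehicle libraries were compared as separate mice, and replicates of a group differed beyond counting error (a chi-square statistic of 1.96 to 3.09 for each degree of freedom in gated nuclei). Replicate numbers did not pair the libraries (correlations of deviations 0.0305, 0.0140 and -0.0514). LPA 1, Vehicle 1 and Vehicle 3 were male and LPA 2, LPA 3 and Vehicle 2 female by Xist and chromosome Y genes. Of 61635 distinct barcodes 708 were in 2 or more libraries, and 41 gated barcodes were found in another library. Some genes that the rule names are not reported here. Intervals cover counting error only.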

Additional observations from a re-analysis of the deposited data

Results flagged for a closer look

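The effect of LPA differed between gated nuclei and all other nuclei of the same libraries for the 12 named genes given here (edgeR interaction test; the differences are log2 fold change in gated nuclei minus that in other nuclei). Those higher in the gate were Mrc1 with 1.69, Dnah12 with 1.41, Anapc15 with 1.35, Dab2 with 0.70, Ctsb with 0.68, Gas6 with 0.67, Man1c1 with 0.58, Mitf with 0.54 and Rbpj with 0.53. Those lower in the gate were Csf3r with -1.22, Inpp5d with -0.94 and Slc1a2 with -0.42. When the other nuclei were limited to those without a UMI of the 5 markers, all 12 were still called. The ciliary gene Dnah12 was called in all gated nuclei but had a difference of -0.30 (adjusted p = 0.936) in the ≤2% nuclei, and its cause was not tested.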

How the results depend on the processing

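The larger share of gated nuclei in LPA libraries kept its direction under every alternative run, with differences of 1.63 to 3.30 percentage points, and of 1.83 to 3.13 points when 1 library was left out. Without the mitochondrial limit and with a marker sum of at least 5 the groups overlapped (exact permutation p = 0.2 for both). The difference in median UMIs per nucleus reversed, from -441 over all gated nuclei to 416 in the ≤2% nuclei, and the cause was not tested.

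The 247 genes called in all gated nuclei became 480 without the limit on Spp1 and Gpnmb, which lets more nuclei in, and 580 without a filter on low counts. They became 111 without Scrublet doublets, 148 with DESeq2's Wald test, 156 with sex as a covariate, 123 with libraries thinned to equal totals and 141 with the replicate block. In the ≤2% nuclei 146 were called, and 87 in those above 2%. Within the ≤2% nuclei the replicate block gave 124 and sex as a covariate 134. Leaving out 1 library gave 123 to 272 calls, and in the ≤2% nuclei 91 (LPA 1), 84 (LPA 2), 73 (LPA 3), 142 (Vehicle 1), 88 (Vehicle 2) and 120 (Vehicle 3), the library left out being in parentheses. The effect differed between gated and other nuclei for 51 genes, for 147 with the ≤2% nuclei, and for 40 to 140 when 1 library was left out. The causes of these shifts were not tested.

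Replicate numbers did not pair the libraries, so the block result says nothing of a weaker effect. Of the 56 named genes called, none reversed under any alternative. Tmem119 kept its call under 10 of 19 alternatives listed for it, Igf1, Lgmn, Klf9 and Gja1 under 7, Cd300a under 6 and Itga6 and Snap25 under 5. Top2a kept its call under 4 of the 16 listed for it. Anapc15, Mrc1, Stab1, Fli1, Runx1, Ctsb, Abca1, Tnfrsf11a, Nrros, Tgfbr3 and Fkbp5 kept theirs under all 19. The smallest Vehicle library held 186855 UMIs in its ≤2% nuclei, and 9004 genes were tested there.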
